A study of Mus musculus with 24 samples.

Results

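The 10 genes described here mark long-term hematopoietic stem cells (HSCs), which sit in the bone marrow and sustain every blood lineage for life. They were chosen by name as genes used to identify these cells, with earlier results of these data known. They are 10 of the 55487 genes counted in the series. They are Procr, Slamf1, Ly6a, Esam, Itga6, Itgb1, Cd44 and Cd27, which encode surface proteins, and Fgd5 and Ctnnal1, which encode intracellular proteins. All 10 passed the filter on low counts in each of the 3 comparisons.

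HSCs are recognised by combinations of surface proteins, since no single protein is unique to them. Long-term HSCs are usually taken as cells that carry KIT, SCA-1 and CD150 and lack CD48, FLT3 and CD34, while multipotent progenitors downstream of them gain those proteins. Integrins and CD44 hold the cells in the bone marrow niche and are shared with many other blood cells.

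Transcriptomes were measured by Smart-seq2 in 24 libraries of sorted mouse HSCs, in 3 experiments. HSCs overexpressing the pseudouridine synthase PUS10 (PUS10-OE, n = 3) were set against vector controls (Vector, n = 3). The second experiment set HSCs with the microRNA miR-139 knocked down (miR139-KD, n = 6) against a non-target control (NTC, n = 6), and the third set libraries labelled Pus10-KO (n = 3) against Pus10-WT (n = 3). The labels give no strain, age, vector, allele or sorting gate, and do not say whether each library had its own animal. The p-values below therefore rest on spread among libraries that may be technical.

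Gene counts came to 9.87 M to 47.3 M per library (M, mega), with 34.2 M or more only in the PUS10-OE and Vector libraries. Levels are given as CPM, that is, counts relative to library size after scaling by the trimmed mean of M-values (TMM). Pus10, the targeted gene, averaged 257 ± 23.7 CPM in PUS10-OE and 75.9 ± 20.2 CPM in Vector (SD, n = 3 each). It was not lower in the libraries labelled Pus10-KO, with 35.2 ± 1.31 CPM against 28.4 ± 7.68 CPM in Pus10-WT (SD, n = 3 each), and each direction given for that label is to be read with this value. Smart-seq2 copies polyadenylated RNA and does not read mature microRNAs, so the knockdown of miR-139 was not checked. NTC replicate 6 and miR139-KD replicate 1 correlated least with the other libraries of their groups over all genes, with mean r of 0.861 and 0.850. Markers of other cells also differed between groups. The summed level of 8 B cell genes was 88.8 to 110.02 CPM in Pus10-KO and 5518 to 14700 CPM in Pus10-WT, with Cd79a, Ebf1, Ms4a1 and Pax5 at 0 in every Pus10-KO library and Pax5 at 0 in every Pus10-WT library. It was 171 to 5715 CPM in miR139-KD and 1041 to 6623 CPM in NTC.

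The coordinates below are those of GENCODE M21 on GRCm38, and all 10 genes are protein-coding. Slamf1 (ENSMUSG00000015316.11) lies at chr1:171767127-171801184 on the plus strand, Ctnnal1 (ENSMUSG00000038816.14) at chr4:56810935-56865188 on the minus strand, Itga6 (ENSMUSG00000027111.15) at chr2:71745616-71858416 on the plus strand and Cd27 (ENSMUSG00000030336.14) at chr6:125232622-125237010 on the minus strand. Procr is at chr2:155751117-155755471, Esam at chr9:37528078-37538319, Fgd5 at chr6:91978878-92076004 and Itgb1 at chr8:128685654-128733200, all on the plus strand. Ly6a is at chr15:74994877-74998031 and Cd44 at chr2:102811141-102901665, both on the minus strand. No member shared exon bases with another annotated gene except Cd27, of whose 2328 exon bases 129 (5.54%) lie in Mir8113 on the same strand.

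Promoters of 3 members whose levels changed in miR139-KD are shown because these genes moved in the same comparison, Slamf1 and Ctnnal1 up and Cd27 down. The sequences are from RefSeq on GRCm38.p6 and run from 250 bases before to 50 bases after the start, read on the strand of the gene, with CG dinucleotides in capitals. That of Slamf1 is at chr1:171766882-171767181, that of Ctnnal1 at chr4:56865162-56865461 and that of Cd27 at chr6:125236978-125237277.
Slamf1: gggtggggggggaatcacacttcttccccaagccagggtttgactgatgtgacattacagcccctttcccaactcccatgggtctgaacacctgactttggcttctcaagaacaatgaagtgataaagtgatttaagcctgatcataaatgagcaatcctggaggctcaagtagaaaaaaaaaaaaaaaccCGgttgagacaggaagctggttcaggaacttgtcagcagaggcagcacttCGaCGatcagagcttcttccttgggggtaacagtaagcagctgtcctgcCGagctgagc
Ctnnal1: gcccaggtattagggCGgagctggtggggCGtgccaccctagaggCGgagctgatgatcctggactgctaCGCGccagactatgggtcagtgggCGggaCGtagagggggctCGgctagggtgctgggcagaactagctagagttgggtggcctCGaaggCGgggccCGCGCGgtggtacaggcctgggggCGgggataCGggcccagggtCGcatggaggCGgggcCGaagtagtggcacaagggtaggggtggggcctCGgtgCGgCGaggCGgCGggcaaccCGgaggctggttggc
Cd27: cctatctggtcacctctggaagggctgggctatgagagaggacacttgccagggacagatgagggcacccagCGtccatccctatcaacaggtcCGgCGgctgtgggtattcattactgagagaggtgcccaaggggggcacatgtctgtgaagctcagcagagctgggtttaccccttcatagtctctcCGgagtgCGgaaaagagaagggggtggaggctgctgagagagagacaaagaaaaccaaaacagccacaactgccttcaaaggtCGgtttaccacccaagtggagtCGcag

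The Slamf1 window held 4 CG dinucleotides, that of Ctnnal1 held 24 and that of Cd27 held 7. The median of the 32851 windows in the table was 7, with quartiles of 3 and 20, so Slamf1 lay below the median and Ctnnal1 above the upper quartile. Windows were found for 7 members, and those of Fgd5 (37), Itgb1 (27), Procr (13) and Cd44 (6) completed the range. GATA letters, searched as AGATAA and TGATAA on both strands, occurred in Slamf1 and Cd44, against 18.6% of all windows. ETS letters, AGGAAG on both strands, occurred in Slamf1, Cd44, Fgd5 and Itgb1, against 35.4% of windows. The E-box letters CACCTG and CAGCTG, again on both strands, occurred in Slamf1 and Procr, against 32.9%. The AP-1 letters TGACTCA, on both strands, occurred in Procr, against 5.20%. No match of one motif overlapped a match of another, and the matches only describe these windows.

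In miR139-KD HSCs, 4 of the 10 genes changed. Slamf1, Ctnnal1 and Itga6 rose and Cd27 fell, while the intervals of Procr, Ly6a, Fgd5 and Cd44 included no change. The comparison asks what lowering miR-139, a microRNA that lowers its target transcripts, does to HSC expression. Calls were made at an adjusted p under 0.05 over all 13295 genes tested (edgeR quasi-likelihood F test, Benjamini-Hochberg), and 2.72% of those genes were called, 1.41% higher and 1.31% lower. At an unadjusted p under 0.05 there were 6 members, against 16% of the genes. The median log2 change of the 10 members was 0.64, against 0.02 over all genes tested.

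Slamf1 encodes CD150, the founding SLAM family receptor. It had 15.1 CPM in the lowest miR139-KD library, 29.9 at the median and 43.2 in the highest, against 7.04, 10.3 and 17.9 CPM in NTC. The ranges met only at their ends: the lowest miR139-KD library, replicate 5, lay below the highest NTC library, replicate 4. The log2 change was 1.36 (SE 0.31, 2.57-fold, edgeR adjusted p = 0.0325). Limma-voom gave an adjusted p of 0.0528 and edgeR without the filter on low counts 0.0532. Over the 9 alternatives that kept all libraries it was 0.00222 to 0.086. The edgeR adjusted p was 0.0562 to 0.0732 without any one of NTC replicates 1, 2, 3, 5 and 6 or miR139-KD replicates 1, 2, 3 and 6, with log2 changes of 1.22 to 1.42.

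Ctnnal1 encodes alpha-catulin, a relative of alpha-catenin whose reporter allele labels HSCs in mice. It had 14.9, 35.6 and 69.9 CPM in the lowest, median and highest miR139-KD libraries, and 4.09, 11.8 and 14.2 CPM in NTC. Every miR139-KD library stood above every NTC library, although the spread within miR139-KD was wide, with a coefficient of variation of 52.5%. The log2 change was 1.99 (SE 0.42, 3.97-fold, edgeR adjusted p = 0.0218). Without miR139-KD replicate 2, the highest library, it was 1.75 with an edgeR adjusted p of 0.0526.

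Itga6 encodes integrin alpha-6 (CD49f), a laminin receptor subunit. Its level was 85.8 CPM in the lowest miR139-KD library, 129.99 at the median and 142.8 in the highest, and 46.4, 63.0 and 95.7 CPM in NTC. A single miR139-KD library, replicate 3, fell within the NTC range, and the other 5 stood above all 6 NTC libraries. The log2 change was 0.90 (SE 0.17, 1.87-fold, edgeR adjusted p = 0.013). The call held without each of the 12 libraries in turn, at edgeR adjusted p of 0.00541 to 0.0375. Itgb1, the beta-1 subunit that pairs with alpha-6, averaged 151.8 ± 28.6 CPM in miR139-KD and 116.3 ± 18.2 CPM in NTC (SD, n = 6 each), with an edgeR adjusted p of 0.18.

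Cd27 encodes a receptor of the tumour necrosis factor receptor family, carried by progenitors and lymphocytes as well as by HSCs. It had 38.2, 88.8 and 101 CPM in the lowest, median and highest miR139-KD libraries, and 117, 145 and 266.5 CPM in NTC. No miR139-KD library reached the lowest NTC library. Cd27 and Ctnnal1 were the 2 members whose groups did not overlap, against 3.42% of all genes tested. The log2 change of Cd27 was -1.07 (SE 0.24, NTC 2.1-fold above miR139-KD, edgeR adjusted p = 0.031). It ranged from -1.10 to -0.88 without NTC replicate 4, 5 or 6 or miR139-KD replicate 1 or 2, with edgeR adjusted p of 0.0528 to 0.0669.

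Esam, an immunoglobulin-family adhesion protein of endothelial junctions, HSCs and platelets, stood near the threshold. It had 30.5, 71.3 and 94.9 CPM in the lowest, median and highest miR139-KD libraries, and 15.9, 28.2 and 44.1 CPM in NTC. Replicates 2 and 6 of miR139-KD lay within the NTC range and the other 4 above it. The log2 change was 1.18 (SE 0.33) with an edgeR adjusted p of 0.0703. DESeq2 gave an adjusted p of 0.00762, a filter of 10 CPM 0.0277, 1 fit over all 6 groups 0.0081 and edgeR without miR139-KD replicate 2 0.0449. Over the 9 alternatives that kept all libraries the adjusted p was 0.00762 to 0.239.

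The remaining members did not pass the test. Procr encodes EPCR, the endothelial protein C receptor, and averaged 34.7 ± 18.2 CPM in miR139-KD and 29.4 ± 14.8 CPM in NTC (SD, n = 6 each), a log2 difference of 0.24 (95% interval -0.56 to 1.04). Ly6a encodes SCA-1, a lipid-anchored protein, and averaged 109.8 ± 26.8 CPM in miR139-KD and 91.7 ± 45.9 CPM in NTC (SD, n = 6 each), a difference of 0.26 (95% interval -0.30 to 0.82). Cd44, the hyaluronan receptor, averaged 193.5 ± 18.1 CPM in miR139-KD and 223 ± 38.5 CPM in NTC (SD, n = 6 each), a difference of -0.20 (95% interval -0.45 to 0.04). Single libraries moved these values by more than 1.5 times. With 1 library left out at a time, Procr ranged from -0.01 (without miR139-KD replicate 3) to 0.56 (without NTC replicate 6) on the log2 scale. Ly6a ranged from 0.12 to 0.57 without the same libraries, and Cd44 from -0.25 (without miR139-KD replicate 1) to -0.11 (without NTC replicate 1). The edgeR adjusted p of these 3 genes stayed at 0.156 or above.

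Fgd5 encodes an exchange factor for the GTPase CDC42, and its reporter alleles label HSCs in mice. It had 3.35, 6.77 and 12.6 CPM in the lowest, median and highest miR139-KD libraries, from 48 to 155 counts. In NTC it had 0, 1.30 and 14.01 CPM, and NTC replicates 1 and 3 held 3 and 0 counts. The NTC libraries thus covered the whole miR139-KD range, and the log2 difference of 0.94 had an SE of 1.02 (edgeR adjusted p = 0.746). It moved with single libraries and with the method. With 1 library left out it was 0.67 (without NTC replicate 3) to 1.99 (without NTC replicate 5), and over the 8 alternatives that kept all libraries and tested the gene it was 0.93 to 3.14, the highest by limma-voom, with adjusted p of 0.114 to 0.749.

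**Figure D1:**
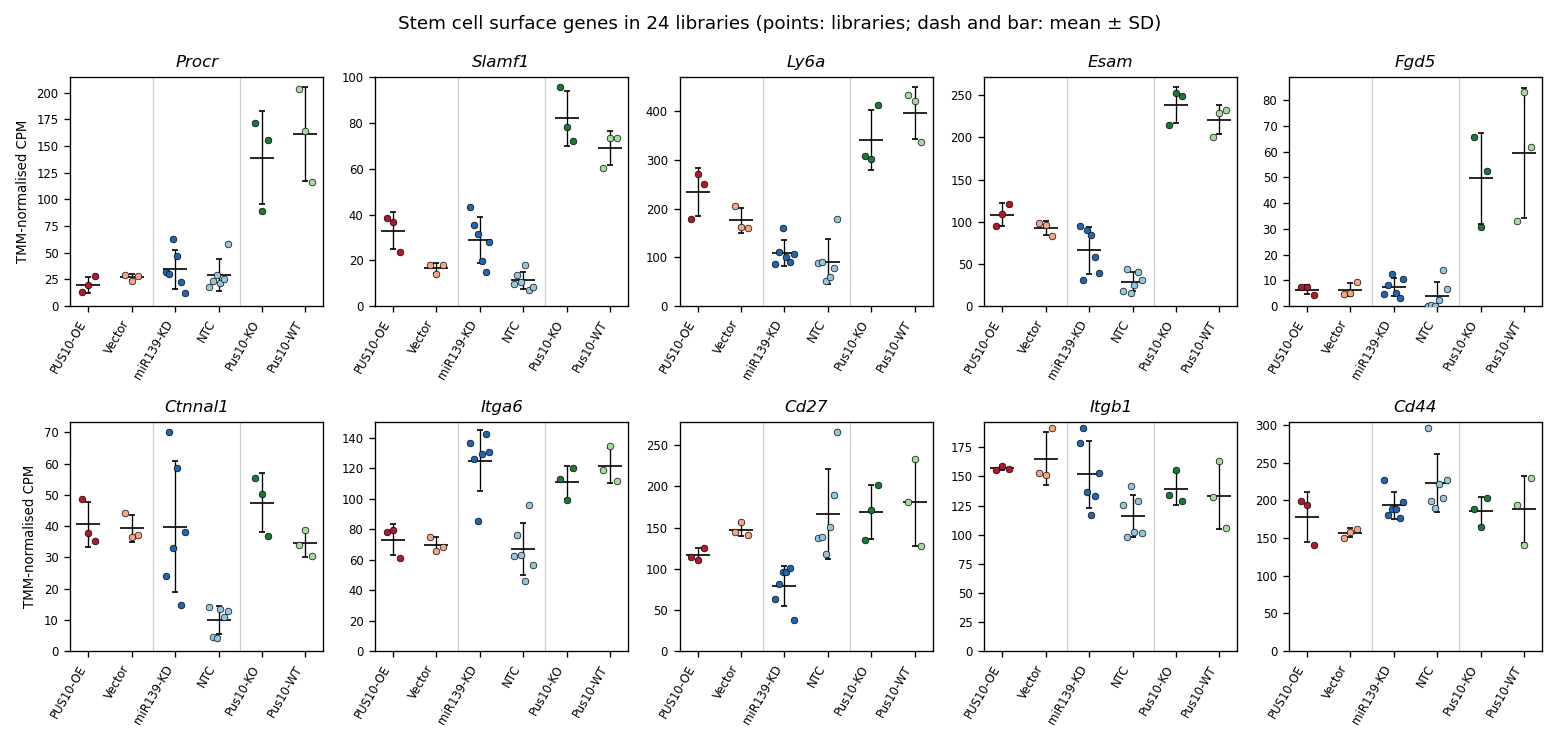
TMM-normalised CPM (y axis, from 0) of each of the 10 genes in each library, by group (x axis), scaled within each of the 3 experiments, with mean and SD. Ctnnal1 in miR139-KD (14.9 to 69.9 CPM) lies wholly above NTC (4.09 to 14.2 CPM) and Cd27 in miR139-KD (38.2 to 101 CPM) wholly below NTC (117 to 266.5 CPM).

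**Figure D2:**
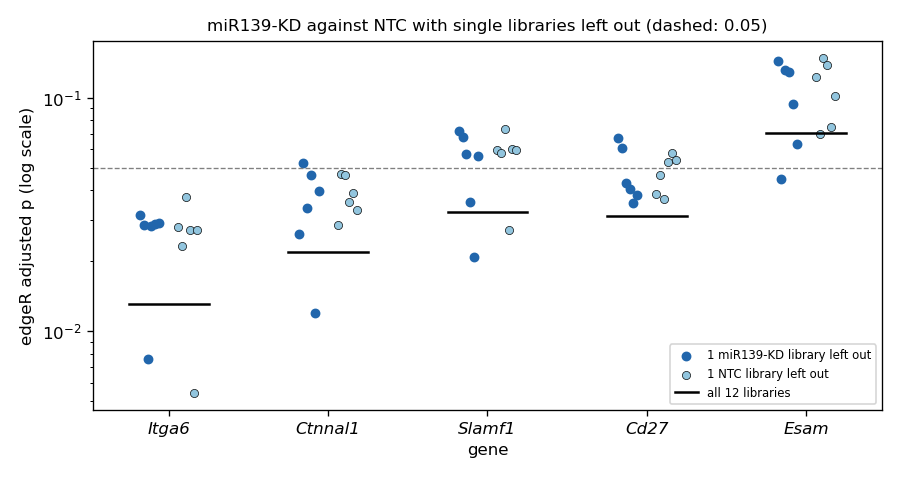
The edgeR adjusted p (y axis, log scale) of 5 genes (x axis) in miR139-KD against NTC with 1 library left out at a time, as a point each, and with all 12 libraries, as a line. All 12 points of Itga6 lie below 0.05, whereas 9 of those of Slamf1, 5 of those of Cd27 and 1 of those of Ctnnal1 lie above it.

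Markers of some other cells moved in the same comparison, where 1.41% of all genes tested rose and 1.31% fell. Of 9 megakaryocyte genes 8 were tested, 5 rose and none fell, and their summed level was 1288 to 2950 CPM in miR139-KD and 139.2 to 375 CPM in NTC. Pf4, a platelet chemokine, averaged 1356 CPM in miR139-KD and 68.5 CPM in NTC. Of 9 multipotent progenitor genes all were tested, 7 fell and none rose, with sums of 362 to 548 CPM in miR139-KD and 920 to 1931 CPM in NTC. Of 8 T cell genes 3 were tested and 1 fell, with sums of 7.26 to 30.0 CPM in miR139-KD and 75.7 to 114 CPM in NTC, and the defining genes Cd3e and Cd3g were at 0 in every library of both groups. All 8 B cell genes were tested and 4 fell. No neutrophil, erythroid, macrophage, plasma cell, endothelial or stromal gene tested was called. Summed neutrophil genes were 1257 to 14694 CPM in miR139-KD and 1475 to 15193 CPM in NTC. Summed erythroid genes were 3199 to 11234 CPM in miR139-KD and 2096 to 14112 CPM in NTC. No B cell, megakaryocyte or progenitor gene was at 0 in all libraries of either group. The part of these cells in the changes of Slamf1, Ctnnal1, Itga6 and Cd27 was not tested. In sorted pools such as these, fewer cells of a type and less RNA per cell cannot be told apart.

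Without both NTC replicate 6 and miR139-KD replicate 1, the libraries that correlated least with their groups, 1 member was called. That gene was Ctnnal1 (log2 change 2.18, edgeR adjusted p = 0.038), and the edgeR adjusted p of Itga6 was 0.0551, that of Cd27 0.105 and that of Slamf1 0.118. The log2 changes of those 3 kept their signs, at 0.84 for Itga6, -0.83 for Cd27 and 1.15 for Slamf1.

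Matches to the seeds of miR-139 are shown because this microRNA was the one knocked down. Both mature strands, from RefSeq on GRCm38.p6, lie on the plus strand, at chr7:101475382-101475403 (5p) and chr7:101475418-101475439 (3p), and bases 2 to 8 are in capitals.
mmu-miR-139-5p: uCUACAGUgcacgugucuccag
mmu-miR-139-3p: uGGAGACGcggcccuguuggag

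The 3′ untranslated regions of GENCODE M21 transcripts were searched for both 7-base seed matches of each strand, ACTGTAG and CTGTAGA for 5p and CGTCTCC and GTCTCCA for 3p. Procr held a 5p match at chr2:155755218-155755224. Itga6 held 3p matches at chr2:71856559-71856565 and chr2:71854165-71854171, in different transcripts. The other 8 members held none. The match is in capitals, and the sites follow in that order.
Procr: aggcagacttACTGTAGgcattcaaaa
Itga6, first: cacaggttccCGTCTCCcttgtcacta
Itga6, second: tcttgtccttGTCTCCAtggttgtcct

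Of 21153 genes with such a region, 21.7% held a 5p match and 16.9% a 3p match, so 1 of 10 members for each strand is not above the background. Procr, with the 5p match, did not pass the test in miR139-KD. Of the 4 members that did, Itga6, which rose, held both 3p matches, and Slamf1, Ctnnal1 and Cd27 held no match of either strand.

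In PUS10-OE HSCs, 0 of the 10 genes passed the test, as did 0% of the 14834 genes tested by edgeR. The overexpressed gene Pus10 did not pass either, at a log2 difference of 1.76 (SE 0.20, edgeR adjusted p = 0.278). The lack of calls therefore does not show that levels were unchanged. At an unadjusted p under 0.05 there were 3 members, Slamf1, Cd27 and Ly6a, against 8.19% of all genes tested. DESeq2 called 1 member, Slamf1, and 177 of the 14834 genes, while limma-voom called 0 members and 0 genes. The median log2 difference of the 10 members was 0.06, against 0.01 over all genes. The comparison asks what more PUS10, the enzyme named in the title of the series, does to HSC expression.

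Slamf1 had 38.4, 36.7 and 23.6 CPM in the 3 PUS10-OE libraries and 18.0, 14.2 and 17.9 CPM in the 3 Vector libraries. All 3 PUS10-OE libraries were above all 3 Vector libraries, with replicate 3 the nearest. The log2 difference was 0.98 (SE 0.23), with an adjusted p of 0.358 by edgeR and 0.0184 by DESeq2, and 0.0184 to 1 over the 9 alternatives that kept all libraries. Cd27 had 114.7, 110.5 and 125.6 CPM in PUS10-OE and 145, 156 and 141 CPM in Vector. All 3 PUS10-OE libraries were below all 3 Vector libraries, and the log2 difference was -0.33 (SE 0.10, edgeR adjusted p = 0.44). These 2 members were the ones whose groups did not overlap, against 15.1% of all genes tested.

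Ly6a had 179, 272 and 250.95 CPM in PUS10-OE and 205, 162 and 161 CPM in Vector. PUS10-OE replicate 1 lay within the Vector range, and the log2 difference of 0.41 had an SE of 0.17 (edgeR adjusted p = 0.6). Procr, with 12.97, 19.6 and 27.9 CPM in PUS10-OE and 29.6, 23.7 and 28.7 CPM in Vector, had a log2 difference of -0.44 (SE 0.28), and leaving out 1 library at a time gave -0.76 to -0.20. Its replicate 3 in PUS10-OE fell within the Vector range. None of the adhesion genes passed, with log2 differences of 0.23 for Esam (95% interval -0.07 to 0.52), 0.07 for Itga6 (-0.25 to 0.38), -0.07 for Itgb1 (-0.33 to 0.19) and 0.18 for Cd44 (-0.15 to 0.51). Ctnnal1 differed by 0.05 (95% interval -0.35 to 0.44) and Fgd5 by -0.01 (-0.88 to 0.85), and the sign of both turned under other settings. Summed megakaryocyte genes reached 444 to 643 CPM in PUS10-OE and 299 to 352 CPM in Vector, and summed progenitor genes 908 to 934 CPM in PUS10-OE and 1262 to 1313 CPM in Vector. Their part in these values was not tested.

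In the libraries labelled Pus10-KO, 0 of the 10 genes passed the test by edgeR, DESeq2 or limma-voom, and 0 had an unadjusted edgeR p under 0.05. Among all 14657 genes tested, edgeR called 0.0614%, and 6.86% had an unadjusted p under 0.05. The groups overlapped for every member, whereas 13.7% of genes tested had groups that did not. The median log2 difference of the members was -0.06, against -0.0034 over all genes. The comparison asks what loss of Pus10 does to HSC expression, although Pus10 was not lower in the libraries so labelled.

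The lowest p belonged to Ctnnal1, which had 55.4, 50.2 and 37.0 CPM in Pus10-KO and 33.9, 38.8 and 30.6 CPM in Pus10-WT. Replicate 3 of Pus10-KO lay within the Pus10-WT range, and the log2 difference was 0.46 (SE 0.24, edgeR adjusted p = 0.822). Slamf1 had 95.6, 78.4 and 72.4 CPM in Pus10-KO and 60.5, 73.6 and 73.4 CPM in Pus10-WT, again with replicate 3 of Pus10-KO inside the Pus10-WT range (log2 difference 0.25, SE 0.18). Procr had 171.8, 89.4 and 156 CPM in Pus10-KO and 203.4, 163.7 and 115.9 CPM in Pus10-WT, with a log2 difference of -0.21 (SE 0.29). For Procr the ranges of the groups overlapped, with the lowest library in Pus10-KO and the highest in Pus10-WT.

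The other members did not pass either. Ly6a differed by -0.22 (95% interval -0.59 to 0.15) and Cd27 by -0.09 (-0.65 to 0.47) on the log2 scale. For the adhesion genes the log2 differences were 0.11 for Esam (-0.17 to 0.39), -0.14 for Itga6 (-0.47 to 0.20), 0.06 for Itgb1 (-0.36 to 0.49) and -0.02 for Cd44 (-0.46 to 0.42). Fgd5 differed by -0.26 (95% interval -1.18 to 0.66), the widest interval of the 10 in this comparison. Summed plasma cell genes were 243 to 359 CPM in Pus10-KO and 13604 to 16051 CPM in Pus10-WT, and 1 of 6 fell. Of 8 B cell genes 5 were tested and 2 fell. Of all genes tested, edgeR called 0.0614% in either direction. The part of the plasma cell sums, and of the B cell sums given above, in the differences of the members was not tested.

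**Figure D3:**
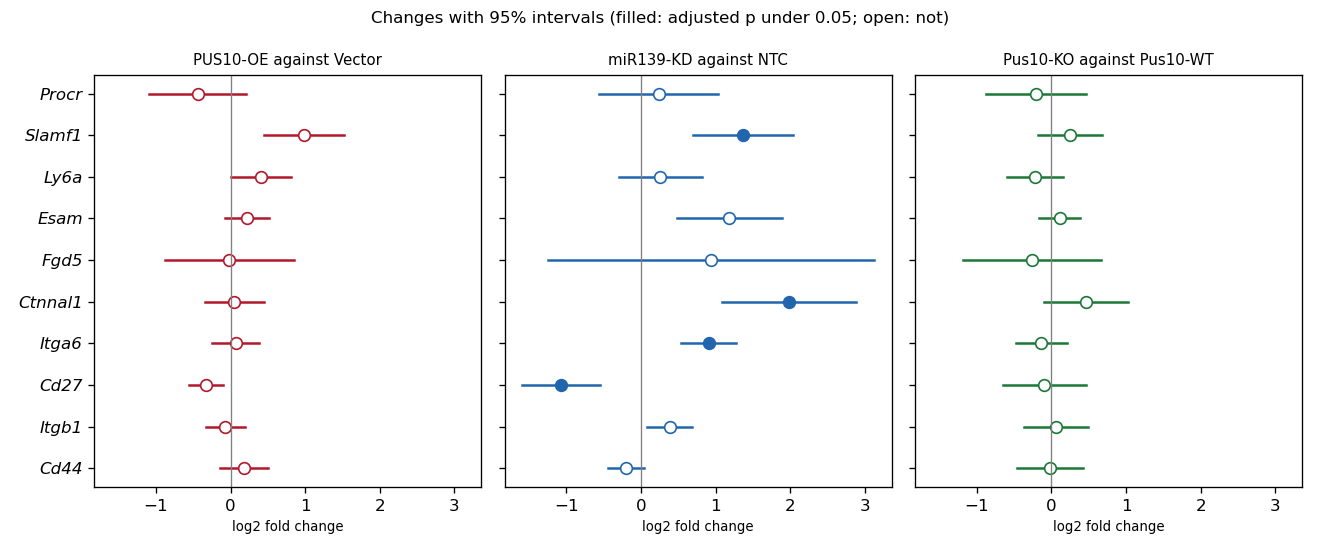
Log2 fold change (x axis) of each gene (y axis) with its 95% interval in the 3 comparisons, filled where the edgeR adjusted p was under 0.05. The 4 filled points, Slamf1 (1.36), Ctnnal1 (1.99), Itga6 (0.90) and Cd27 (-1.07), are all in miR139-KD against NTC.

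Whether a change differed between experiments was tested as an interaction in 1 edgeR fit of all 6 groups and 17664 genes. In each of the 3 pairs of experiments 0 of the 10 members passed, against 0.294% of genes for miR139-KD minus Pus10-KO, 0.051% for PUS10-OE minus miR139-KD and 0.0226% for PUS10-OE minus Pus10-KO. Limma-voom also called 0 members in each pair. At an unadjusted edgeR p under 0.05 there were 5 members in the first pair, 4 in the second and 0 in the third, against 10.1%, 8.47% and 5.75% of genes. The lowest p was that of Itga6, whose change in miR139-KD was 1.01 above that in Pus10-KO on the log2 scale (SE 0.26, edgeR adjusted p = 0.108). Without NTC replicate 5 it was 1.16 (edgeR adjusted p = 0.0239) and without miR139-KD replicate 3 it was 1.12 (edgeR adjusted p = 0.0462). The calls in miR139-KD are therefore not shown to be particular to that experiment.

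Across the 3 experiments the members divided by level. The levels in this and the next paragraph are CPM per kilobase of merged exon on a common scale of all 24 libraries, with no test, since experiment, depth and any difference in sorting cannot be told apart. Fgd5 averaged 7.94 in the 6 Pus10-KO and Pus10-WT libraries and 0.97 in the other 18, a ratio of 8.18. Procr averaged 67.8 against 14.7 (ratio 4.61), Slamf1 11.3 against 3.63 (3.11) and Esam 73.4 against 23.7 (3.10). For these 4 genes every one of the 6 libraries was above all 18 others. Ly6a had a ratio of 2.40, with overlap between the lowest of the 6 at 233 and the highest of the 18, a PUS10-OE library, at 250.9. Ctnnal1, Itga6, Cd27, Itgb1 and Cd44 had ratios of 0.85 to 1.24 and overlapped.

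Within a group, Ly6a had the highest mean of the 10 in all 6 groups, from 75.9 in NTC to 300.5 in Pus10-WT. Fgd5 was the lowest in PUS10-OE (1.12), Vector (1.11), miR139-KD (1.18) and NTC (0.62), and Ctnnal1 in Pus10-KO (5.73) and Pus10-WT (4.10). For Slamf1 the order of group means was Pus10-KO 12.3, Pus10-WT 10.2, PUS10-OE 5.87, miR139-KD 4.65, Vector 2.93 and NTC 1.83. Of neighbours in that order, Pus10-WT and PUS10-OE did not overlap, and the others did. NTC stood alone at the low end for Ctnnal1, at 1.31 against 4.10 to 5.81 in the other groups, and miR139-KD for Cd27, at 33.9 against 55.0 to 71.6. Ctnnal1 in NTC did not overlap Pus10-WT, the next group up, and Cd27 in miR139-KD did not overlap PUS10-OE. For Itga6 the top group was miR139-KD at 13.8, which overlapped Pus10-WT at 12.3.

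**Figure D4:**
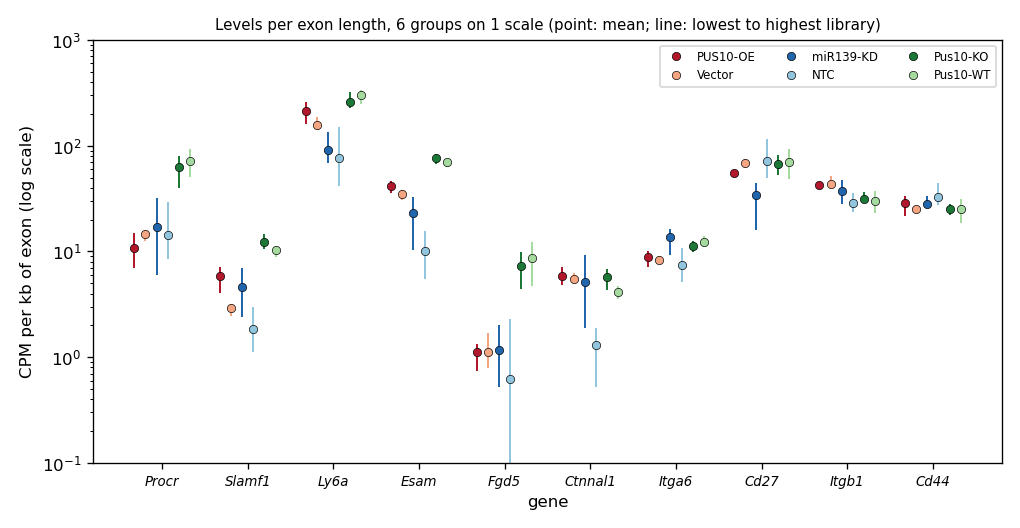
Level per kilobase of exon (y axis, log scale) of each gene (x axis) in 6 groups, as the mean with a line over all libraries of the group; the NTC line of Fgd5 leaves the axis because a library is at 0. Procr, Slamf1, Esam and Fgd5 in both Pus10 groups lie above all other libraries, while for Itgb1 and Cd44 the Pus10 groups overlap the others. Group means of Itgb1 run from 28.5 in NTC to 43.8 in Vector, and those of Cd44 from 25.1 in Vector to 32.9 in NTC.

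The genes that HSC gates exclude ran the other way. Their levels are CPM scaled within each experiment, not on the common scale used above. Levels were not tested between experiments, since experiment, depth and any difference in sorting cannot be told apart. Flt3, a cytokine receptor of multipotent progenitors, had 0 to 9.21 CPM in Pus10-KO and 1.13 to 6.81 CPM in Pus10-WT. In the other experiments it had 15.4 to 46.3 CPM in PUS10-OE, 71.7 to 84.8 CPM in Vector, 32.7 to 60.6 CPM in miR139-KD and 106 to 185 CPM in NTC. Cd34, a sialomucin, averaged 47.0 CPM in Pus10-KO and 44.0 CPM in Pus10-WT, and 549 CPM in PUS10-OE and 778 CPM in Vector. Of 7 gate genes, 3 are members (Procr, Slamf1 and Ly6a). Among the other 4, Flt3, Cd48 and Cd34 fell in miR139-KD, with log2 changes of -1.80, -2.04 and -1.33 (edgeR adjusted p = 0.000352, 0.00144 and 0.00264), and 0 of the 4 passed in the other comparisons. Of all genes tested in miR139-KD, 1.31% fell. Flt3, Cd48 and Cd34 are also among the progenitor genes above that fell. Kit, the stem cell factor receptor, averaged 235 ± 42.4 CPM in miR139-KD and 195 ± 20.7 CPM in NTC (SD, n = 6 each).

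Some relatives of the adhesion members and some integrin adaptors rose in miR139-KD. Of all genes tested there, 1.41% rose and 1.31% fell, and 16% had an unadjusted edgeR p under 0.05. Of 12 other integrin subunits tested 2 rose and 0 fell: Itga2b, the platelet integrin alpha-IIb, averaged 246 ± 65.9 CPM in miR139-KD and 64.5 ± 20.8 CPM in NTC, and Itgb3, its partner, 49.5 ± 18.5 CPM in miR139-KD and 17.5 ± 10.6 CPM in NTC (SD, n = 6 each). Both are also among the megakaryocyte genes above. Of 21 integrin adaptors and tetraspanins tested 4 rose and 0 fell. They were Rap1b, a GTPase that activates integrins (log2 change 1.37, SE 0.16), the tetraspanin Cd9 (1.38, SE 0.21), Lims1 (0.81, SE 0.15) and talin, Tln1 (0.51, SE 0.10). Of 9 CD44 ligands, linkers and hyaluronan genes tested 0 changed by edgeR and 2 had an unadjusted p under 0.05, the lowest p being that of Hmmr, another hyaluronan receptor (0.87, edgeR adjusted p = 0.0547).

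Relatives of the other members were also counted in miR139-KD. The shares of all genes tested were again 1.41% higher, 1.31% lower and 16% at an unadjusted edgeR p under 0.05. Of 6 other SLAM genes tested 1 fell, Cd48, the ligand of CD244. Cd48 is also among the gate and progenitor genes above that fell. Of 5 other catenin-related genes 1 rose, Ctnnd1, p120 catenin, which averaged 37.3 ± 9.01 CPM in miR139-KD and 13.3 ± 3.05 CPM in NTC (SD, n = 6 each). Among 11 endothelial and junction genes 1 fell, Egfl7 (-0.88, SE 0.18). Of 6 other LY6 genes, 7 genes of the EPCR and thrombin receptor pathway and 8 genes of CD27 signalling, 0 changed by edgeR, and 0, 2 and 0 had an unadjusted p under 0.05. The lowest p of the EPCR group was that of F2r, the thrombin receptor PAR1, at 68.7 ± 21.3 CPM in miR139-KD and 32.4 ± 13.8 CPM in NTC (SD, n = 6 each, edgeR adjusted p = 0.0723).

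Of 21 other genes used as HSC markers that were tested, 4 rose and 0 fell in miR139-KD, against 1.41% and 1.31% of all genes tested. They were Gata2, a transcription factor of HSCs and megakaryocyte progenitors (1.23, SE 0.18), Vwf, von Willebrand factor (3.06, SE 0.61), Pdzk1ip1 (0.90, SE 0.20) and Gfi1b (0.66, SE 0.16). Gfi1b encodes a transcriptional repressor that acts in the megakaryocyte and erythroid lineages. Vwf is also among the 9 megakaryocyte genes above, whose sums were higher in miR139-KD. Gata2 is also among 6 mast cell and basophil genes, of which 4 were tested and only Gata2 was called. Their sums, Gata2 included, were 211 to 2421 CPM in miR139-KD (median 300) and 120.4 to 224 CPM in NTC (median 143). Gata2 alone averaged 289 CPM in miR139-KD and 123 CPM in NTC. The part of these cells in the changes of the 4 genes was not tested. The median log2 change of these 21 genes was 0.75, against 0.02 over all genes tested. The lists were chosen with earlier results of these data known, so a share above that of all genes is no evidence of a pattern. Over the lists together, without the members and the marker lists of other cells, 48 of 115 tested genes (41.7%) had an unadjusted edgeR p under 0.05 in miR139-KD. That compares with 16% of all genes tested. In PUS10-OE 0 of 116 tested genes of these lists changed by edgeR, with 20 (17.2%) at an unadjusted p under 0.05, against 8.19% of all genes tested. In Pus10-KO 0 of 123 changed, with 11 (8.94%) at that level, against 6.86% of all genes tested. In PUS10-OE, Vwf averaged 18.3 ± 9.22 CPM, against 7.31 ± 3.59 CPM in Vector (SD, n = 3 each, edgeR adjusted p = 0.501).

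For each of the 4 changed members, the 3 genes most like it over the 24 libraries were found among 9164 genes, by the root mean square difference of log2 CPM after centring each gene on its mean. Nearest to Slamf1 were Gng11 (0.46), Cdc42bpa (0.48) and Sgms1 (0.48), where Slamf1 itself varied by 1.04. Among those nearest to Ctnnal1 were Pdcd4 (0.58) and Gsap (0.64), where Ctnnal1 varied by 1.06. Gng11 and Pdcd4 were also called in miR139-KD, each at a log2 change of 1.58. Nearest to Itga6 were R3hdm4 (0.26), Fyb (0.28) and Prcp (0.30), and nearest to Cd27 were Rsrp1 (0.32), Limd2 (0.32) and N4bp2l1 (0.33). Itga6 itself varied by 0.42 and Cd27 by 0.58. R3hdm4, Fyb, Prcp and Rsrp1 were called in miR139-KD too. The 24 libraries used to pick these genes include those of miR139-KD and NTC, so calls shared with the member are partly built in. Relative to the member's own variation, the distances were largest for Itga6 and smallest for Slamf1, with Cd27 near Ctnnal1. Among the members, the closest pair was Itgb1 and Cd44 (0.44), and Itga6 and Itgb1, which encode subunits of 1 integrin, were the next (0.48). That 0.48 exceeded the variation of Itga6 itself, 0.42, so it does not show that Itga6 and Itgb1 vary together.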

How the data were processed

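Smart-seq2 was run on 24 samples of sorted mouse HSCs. The kit does not mark strand, so reads of overlapping and antisense genes are not separable. The authors deposited whole-number read counts per gene, without normalization. The submitters' processing notes name HISAT2 2.1.0 with mm10, HTSeq 0.11.2 and DESeq2. The annotation release, not given in the sources used here, was replaced by GENCODE M21 for names. GENCODE M21 gave symbols to 55394 of 55487 IDs.

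The 5 summary entries stayed out of the fits: reads in no gene made up 3.70% to 12.0% and ambiguous ones 6.53% to 20.1%. With no molecular identifiers, depth speaks only for counting error. Each of the 42 within-group library pairs differed beyond sampling noise (chi-square per degree of freedom at least 30.1). The 10 members and the gene lists were chosen with earlier results of these data known. Groups follow the genotype labels.

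Comparisons were fitted separately in edgeR 4.0.16 (R 4.3.3) with filterByExpr, TMM and the robust two-sided quasi-likelihood F test, adjusted by Benjamini-Hochberg over all genes tested. The script was tested on simulated data. SEs follow from the log2 change and the F statistic. The text names all members, up to 2 genes with the lowest p per list and comparison, and the 3 genes most like each called member. Other list genes, among them Pf4, were named after their values were seen. A gene list and a gene among those most alike are not reported here. Alternatives were DESeq2 1.42.0, limma-voom (limma 3.58.1), other scalings and filters, a replicate block, 1 fit of all groups, and libraries left out. Python 3.11.15 with matplotlib 3.10.9 made the figures.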

Additional observations from a re-analysis of the deposited data

Results flagged for a closer look

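Single libraries stood apart from the other 5 of their group in 5 of the 20 groups of 6 values tested, by the gap to the nearest library over the range of the group, and chance flags about 1 in 20. In miR139-KD replicate 3, Itga6 was low at 85.8 CPM, with the nearest library at 125.8 CPM, and Ly6a was high at 161 CPM, with the nearest at 111 CPM. In NTC replicate 6, Ly6a was high at 179.8 CPM, with the nearest at 90.9 CPM, and Procr was high at 58.7 CPM, with the nearest at 28.8 CPM. In NTC replicate 1, Cd44 was high at 296 CPM, with the nearest at 227 CPM.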

How the results depend on the processing

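The calls in miR139-KD against NTC numbered 4, with 5 by DESeq2, with the filter of 10 CPM (where Fgd5 was not tested) and in the fit of all 6 groups, 3 by limma-voom and without a filter, and 4 under the other scalings. They numbered 1 without NTC replicate 6 and miR139-KD replicate 1, which was chosen after seeing the data, and 2 to 4 with single libraries left out, being 2 without NTC replicate 5 or 6 or miR139-KD replicate 1 or 2. In PUS10-OE against Vector DESeq2 called 1 member instead of 0. The interaction of miR139-KD and Pus10-KO had 0 to 1 calls with single libraries left out. In all other settings the counts stayed at 0.

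With the replicate number as a block, the call in miR139-KD against NTC numbered 1, Itga6. Same-numbered libraries did not deviate together, with correlations of -0.02 to 0.02. These values show no pairing by number, but the labels do not say whether libraries were paired.

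Signs that turned were those of small differences. In PUS10-OE against Vector, Ctnnal1 was -0.0054 scaled by library size only, and Fgd5 was 0.11 by limma-voom, 0.036 with the replicate block and 0.0084 in the fit of all 6 groups. In Pus10-KO against Pus10-WT, Cd44 was 0.042 scaled by library size only and 0.0017 with the replicate block. Ly6a in PUS10-OE minus miR139-KD was -0.062 by limma-voom. With single libraries left out, PUS10-OE minus Vector ranged from -0.10 to 0.14 for Ctnnal1, -0.19 to 0.38 for Fgd5, -0.0022 to 0.16 for Itga6 and -0.13 to 0.044 for Itgb1. Pus10-KO minus Pus10-WT ranged from -0.29 to 0.13 for Cd27, -0.19 to 0.14 for Cd44, -0.55 to 0.063 for Fgd5, -0.082 to 0.23 for Itgb1 and -0.40 to 0.026 for Procr. Procr in miR139-KD minus NTC ranged from -0.015 to 0.56 (0.59 without NTC replicate 6 and miR139-KD replicate 1), Ly6a in PUS10-OE minus miR139-KD from -0.13 to 0.33, and in PUS10-OE minus Pus10-KO Fgd5 from -0.080 to 0.64 and Itgb1 from -0.30 to 0.0092. The cause was not tested. Counts of 0 to 183 in NTC limit what can be said of Fgd5.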
